A study of Mus musculus with 4 samples.

Results

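The 40 genes described here mark the epithelium of the mouse mammary gland and were taken by symbol from the 55487 genes counted in the mammary fat pad (MFP). They comprise 6 markers of luminal progenitors (Elf5, Kit, Aldh1a3, Lcn2, Wfdc18 and Mfge8) and 6 of hormone-sensing luminal cells (Foxa1, Gata3, Prom1, Cited1, Ly6d and Areg). There are also 5 markers of basal cells (Krt5, Krt14, Krt17, Trp63 and Oxtr) and 23 epithelial genes grouped here as pan-epithelial. Some of the 23, such as Krt8, Krt18, Krt19 and Muc1, are genes of luminal cells. All 40 genes had a row in the count table, all 40 were among the 22485 genes tested, and none was at 3 counts or fewer in any library.

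Total RNA was sequenced from whole, undissociated MFPs of female c57bl/6j mice, without a tumour or treatment named in the labels. The aged group held 2 biological replicates of 14 months and the young group 2 biological replicates of 8 weeks. The labels do not say whether each replicate was 1 animal, so p-values measure the spread between these samples only. The tissue holds epithelium beside fat, muscle, vessels and immune cells, and in bulk RNA fewer cells of a type and less RNA per cell cannot be told apart.

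The mammary gland is a tree of ducts in a bed of fat. Its ducts have an inner luminal layer, made of alveolar progenitors and of cells that carry receptors for oestrogen and progesterone, and an outer basal layer of contractile myoepithelial cells. Hormone-sensing cells answer ovarian steroids by releasing paracrine factors such as amphiregulin, and basal cells contract in response to oxytocin. The tree grows at puberty and again with each cycle and pregnancy.

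Libraries held 68803304 to 98402403 counts, at which 3 counts equal 0.0337 to 0.0407 CPM (counts-per-million of the scaled library total); intervals and floors of this kind cover counting error only. Young replicate 1 stood apart. Its 5 T cell markers summed to 493 CPM and its 5 B cell markers to 415 CPM, against 3.33 to 41.4 CPM and 2.57 to 52.3 CPM in the other 3 libraries. Glycam1, a milk protein gene also used by the high endothelial venules of lymph nodes, was at 418 CPM there and at most 0.326 CPM elsewhere. In the same library the 40 epithelial genes summed to 2717 CPM, against 6129 CPM in young replicate 2 and 5089 and 4669 CPM in the aged samples. The part of the lymphoid RNA in the epithelial differences was not tested, and the main results are therefore given with and without this library.

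**Figure D1:**
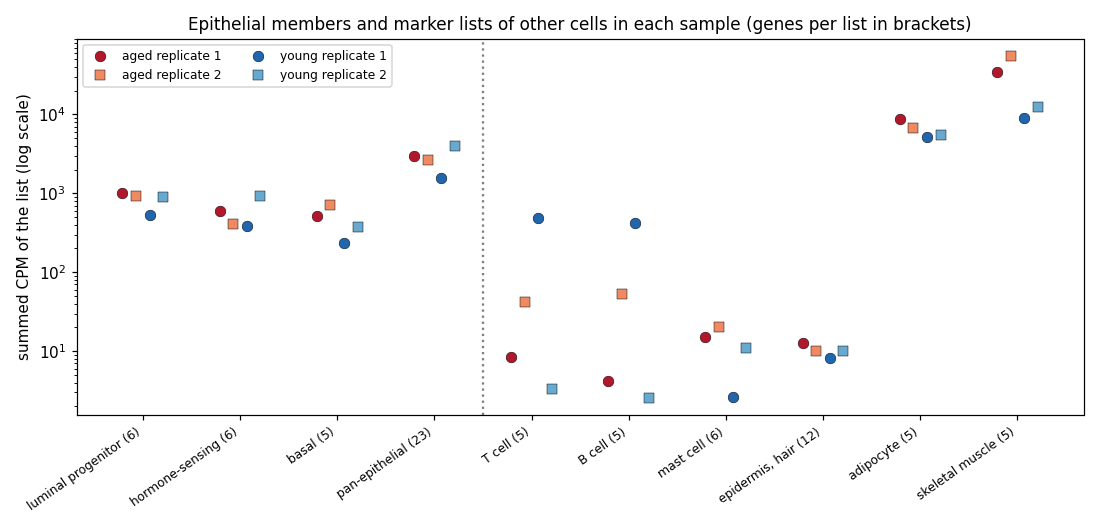
Summed CPM (log axis) of the 4 groups of epithelial genes, left of the dotted line, and of 6 marker lists of other cells, right of it, with 1 point per library (aged in reds, young in blues, replicate 1 as circles and replicate 2 as squares). Young replicate 1 is lowest for each epithelial group and holds 493 CPM of T cell and 415 CPM of B cell markers.

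Young replicate 2 was above young replicate 1 for 40 of the 40 genes, by a median of 2.76-fold (range 1.01 to 4.26). Over all genes tested the median of that ratio was 1.00. The aged pair lay closer, with a median of 1.15-fold between aged replicate 1 and aged replicate 2. For 23 of the 40 genes both aged samples fell between the 2 young ones, beside 4704 of the 22485 genes tested. The young pair was thus farther apart than the age groups for most of these genes. Young replicate 1 was the lowest library for 36 genes and young replicate 2 the highest for 26.

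No member passed the test between ages. In simulated counts edgeR recovered only 35% or 8% of genes changed by a log2 fold of 2, depending on the spread used. A count of 0 therefore does not show that the ages are alike. edgeR's quasi-likelihood test called 0 of 40 members and 0 of 22485 genes (0%) at an adjusted p under 0.05, and the smallest adjusted p of a member was 0.426. At an unadjusted p under 0.05 it counted 2 members as higher in the aged MFP (Mfge8 and Oxtr), where 7.24% of all genes were, and 1 as lower (Cited1), where 3.31% were. DESeq2 called 0 members, beside 3.17% of genes higher and 0.692% lower. In aged MFP 28 members had a positive and 12 a negative log2 fold change, with a median of 0.16 beside -0.04 over all genes. With library totals as the only scaling 19 were positive, the median of the members was -0.02 and that of all genes -0.22. Without young replicate 1 only 9 of the 40 were positive and the median of the members was -0.34, whereas 37 were positive with a median of 0.98 without young replicate 2.

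The groups did not overlap for 10 members. Both aged samples were above both young ones for 7 (Mfge8, Krt5, Krt14, Trp63, Oxtr, Ehf and Muc1), against 23.3% of all genes. Both were below for 3 (Cited1, Areg and Spdef), against 22.8%. The counts of members were below these shares.

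**Figure D2:**
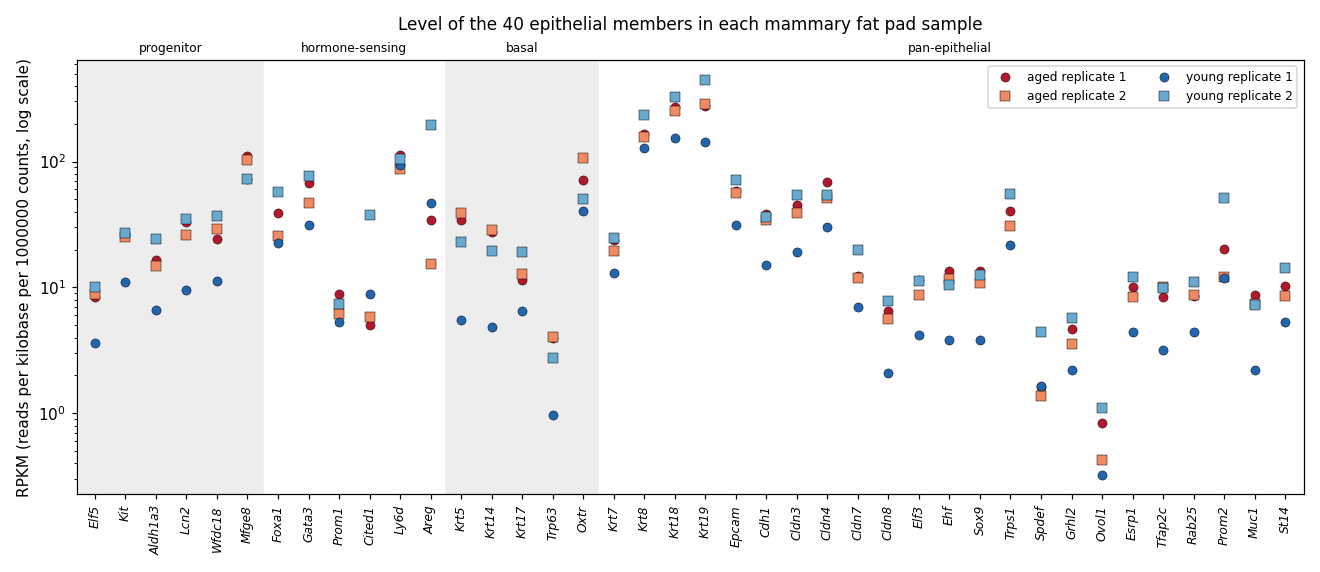
Level of each of the 40 genes in each library as RPKM (CPM per kilobase of exon, log axis), grouped by lineage, with aged samples in reds and young samples in blues. Young replicate 1 (dark blue circles) is the lowest point for 36 genes, while Areg and Cited1 are lower in both aged samples than in both young ones.

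To compare lineages at unequal levels of epithelial RNA, each gene was set against the median of the 23 pan-epithelial genes of its own library, on a log2 scale with a prior count of 2. A value of this kind compares genes within a library and does not depend on the scaling of the library. The reference includes luminal genes such as Krt8, Krt18, Krt19 and Muc1, so it does not stand for all lineages equally. Levels said to be against or relative to the epithelium use this median. The 6 hormone-sensing members had a lower median against the epithelium in aged MFP, with 4 of them lower in both aged samples (Areg, Cited1, Foxa1 and Gata3) and Prom1 and Ly6d overlapping. Their median was 0.19 and 0.01 in aged MFP against 1.41 and 0.83 in young MFP, a difference of -1.01 (pooled SD 0.30, n = 2 per age). The 5 basal members had a higher median, with Krt5, Krt14 and Trp63 higher in both aged samples, Oxtr overlapping and Krt17 lower. Their median was -0.39 and -0.07 in aged MFP against -1.24 and -0.995 in young MFP, a difference of 0.89 (pooled SD 0.20). The samples of the 2 ages did not overlap in either case, and the two-sided exact permutation p was 0.333 for each, the smallest that 2 samples against 2 can give. The members were chosen with earlier results of these data known, so neither the separation nor this p can decide whether the ages differ. The further genes of both lineages did not show these differences in their medians. Over 9 further hormone-sensing genes the median of the differences per gene was 0.19, with 1 gene higher (Tph1), 3 lower and 5 overlapping. The 3 lower were the receptor genes Esr1 (-0.35), Pgr (-0.49) and Prlr (-0.37). Over 10 further basal genes the median difference was -0.01, with 2 higher (Cdh3 and Col17a1), 1 lower and 7 overlapping. The contractile genes among them, which the smooth muscle of vessels also uses, differed by -0.09 (Acta2), -0.02 (Myh11), -0.12 (Cnn1), -0.68 (Tagln) and 0.06 (Mylk). The others differed by 0.56 (Cdh3), 0.57 (Col17a1), 0.15 (Lgr6), 0.007 (Jag2) and -0.18 (Itgb4). The part of vessels was not tested. Of all genes 4.77% were higher and 18.7% lower on this scale, shares that depend on the low reference in young replicate 1. By the median of the differences per gene the hormone-sensing members were at -0.61 and the basal members at 0.77.

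Luminal progenitor genes overlapped between ages. Their median was 0.35 and 0.37 in aged MFP against 0.22 and 0.57 in young MFP, a difference of -0.03 (pooled SD 0.18, exact permutation p = 1). Its sign turned with the reference, to 0.22 against Epcam alone. The hormone-sensing difference was -0.73 without young replicate 1 and -1.30 without young replicate 2, and the basal difference 0.77 and 1.01. With Epcam as the reference they were -0.76 and 1.14.

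By gene, 6 members stood higher against the pan-epithelial median in both aged than in both young samples (Krt5, Krt14, Trp63, Ehf, Sox9 and Muc1), where 4.77% of all genes did. In the other direction 17 members stood lower, where 18.7% of all genes did. These were Areg, Cited1, Foxa1 and Gata3 of the hormone-sensing genes, Krt17 of the basal genes, and Spdef, Prom2, Krt8, Krt18, Krt19, Cldn3, Cldn7, Trps1, Grhl2, Ovol1, Esrp1 and St14 of the pan-epithelial genes. These last 12 are among the 23 genes that form the reference, whose own members had a median difference of -0.25, and 19 further pan-epithelial genes had one of -0.36, with 10 lower, 1 higher and 8 overlapping. None of the 6 luminal progenitor genes was separated by age on this scale. The shares of all genes are no baseline for these counts. The reference was lowest in young replicate 1, at a median log2 CPM of 4.58 against 6.09 in young replicate 2 and 6.00 and 5.73 in the aged samples. Genes that did not fall with it in young replicate 1 stand high there, which leaves few that can be higher in both aged samples.

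**Figure D3:**
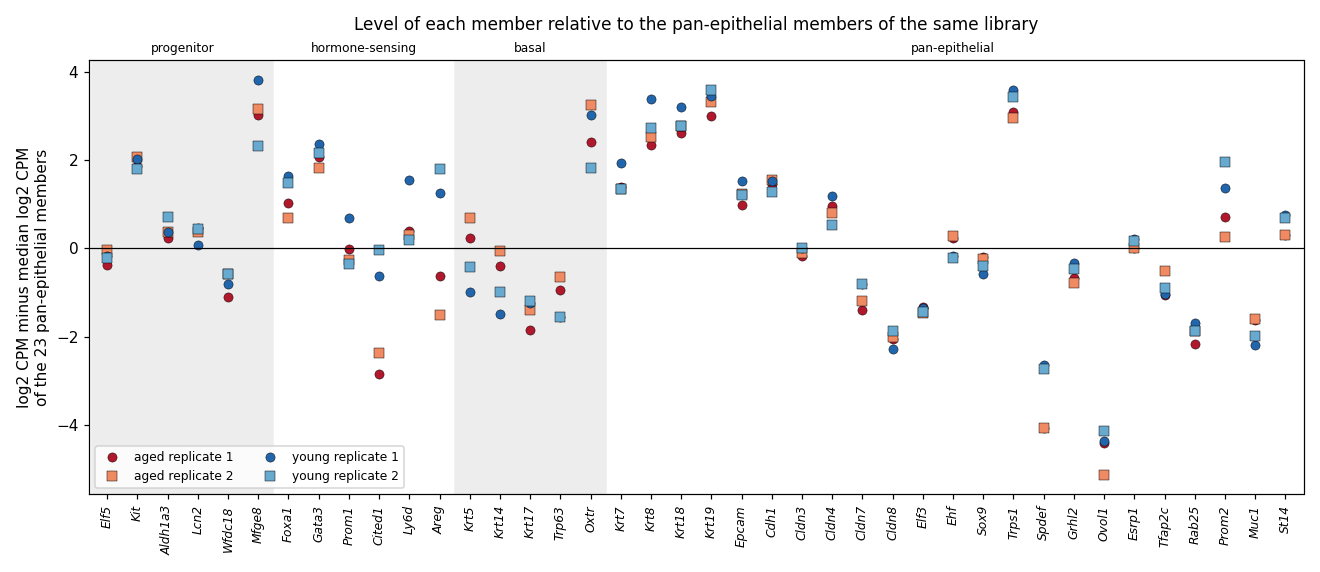
log2 CPM of each gene minus the median log2 CPM of the 23 pan-epithelial genes of the same library (0 line), with 1 point per library. Areg, Cited1, Spdef and Prom2 lie lower in both aged samples (reds) than in both young ones (blues), and Krt5, Krt14 and Trp63 lie higher.

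The 5 members with the largest difference on this scale were Areg, Cited1, Spdef and Prom2, which were lower, and Krt5, which was higher. The 250 bases upstream of their RefSeq start sites (GRCm38.p6, written 5′ to 3′ on the strand of the gene) are shown so that genes that stood lower and higher can be read side by side. Capitals mark matches on either strand to 7 short motifs, which were AACNGGTT (Grainyhead-like), AGGAAG (ETS factors such as Ehf and Elf5), TGTTTAC (Foxa), AGATAA (the motif of Gata3), GCCNNNGGC (AP-2), TGACGTCA (the cyclic AMP response element) and TATAAA (a core promoter box, here called the TATA box).
Areg, chr5:91139349-91139598, plus strand: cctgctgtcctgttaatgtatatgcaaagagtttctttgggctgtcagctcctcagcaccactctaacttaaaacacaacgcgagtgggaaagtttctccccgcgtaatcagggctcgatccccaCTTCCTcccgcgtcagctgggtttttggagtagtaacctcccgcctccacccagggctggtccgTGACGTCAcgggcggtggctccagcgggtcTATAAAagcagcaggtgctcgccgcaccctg
Cited1, chrX:102252182-102252431, minus strand: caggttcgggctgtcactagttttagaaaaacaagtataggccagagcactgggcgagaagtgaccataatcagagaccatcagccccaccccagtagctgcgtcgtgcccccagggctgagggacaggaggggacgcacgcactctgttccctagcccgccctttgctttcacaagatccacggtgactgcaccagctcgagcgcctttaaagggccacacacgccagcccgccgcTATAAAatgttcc
Spdef, chr17:27728952-27729201, minus strand: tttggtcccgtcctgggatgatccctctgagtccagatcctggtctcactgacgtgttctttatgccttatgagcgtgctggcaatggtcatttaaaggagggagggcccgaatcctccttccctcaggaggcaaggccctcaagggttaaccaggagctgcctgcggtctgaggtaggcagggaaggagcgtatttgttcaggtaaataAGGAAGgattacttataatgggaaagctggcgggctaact
Prom2, chr2:127541418-127541667, minus strand: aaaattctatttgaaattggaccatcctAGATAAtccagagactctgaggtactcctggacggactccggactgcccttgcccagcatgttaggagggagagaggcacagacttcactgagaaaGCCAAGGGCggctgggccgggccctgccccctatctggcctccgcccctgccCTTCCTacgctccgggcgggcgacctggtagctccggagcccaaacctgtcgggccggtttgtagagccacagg
Krt5, chr15:101712906-101713155, minus strand: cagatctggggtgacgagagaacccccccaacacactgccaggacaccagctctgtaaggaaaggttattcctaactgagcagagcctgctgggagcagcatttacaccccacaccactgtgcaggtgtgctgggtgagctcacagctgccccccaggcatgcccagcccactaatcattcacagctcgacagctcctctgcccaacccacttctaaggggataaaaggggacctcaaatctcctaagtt

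The Areg window held a cyclic AMP response element, a letter string found in 1.55% of the 32851 windows of that length, a TATA box (12.4%) and an ETS match on the other strand (29.5%). Cited1 held a TATA box only. Spdef held 1 ETS match, and Prom2 an ETS, a Gata (9.99%) and an AP-2 match (13.7%). The Krt5 window held none of the 7 strings. Of the 40 members 25 matched a RefSeq window, and for 16 of these the start lay within 100 bases of the 5′ end in GENCODE M21, the limit used for this search. Among those 16, the ETS string occurred in 8, AP-2 in 5, the TATA box in 4, the Grainyhead-like string (1.79% of all windows) in 2 (Rab25 and Muc1), the cyclic AMP response element in 2, Gata in 1 and Foxa (3.17%) in 0. A match describes letters and is no binding site, and a missing match says only that the letters are not in this window.

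Among the hormone-sensing genes, Areg and Cited1 had the lowest levels in the aged relative to the young MFP. Areg encodes amphiregulin, the EGF receptor ligand that these cells release to neighbouring cells under oestrogen. It was at 41.5 and 18.7 CPM in the aged and 57.2 and 239 CPM in the young samples. The aged values lay below both young ones, and young replicate 2 was far above the other 3 libraries (log2 fold change, aged over young, -2.30, SE 0.84, adjusted p = 0.476). The fold change was -2.99 without young replicate 1 and -0.92 without young replicate 2. Against the pan-epithelial median Areg stood at -0.62 and -1.51 in the aged samples against 1.26 and 1.81 in the young, a difference of -2.60, the largest of the 40.

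Cited1, a transcriptional co-activator of the oestrogen response, was at 8.77 and 10.3 CPM in the aged and 15.6 and 66.4 CPM in the young samples. The groups did not overlap, and the young replicates were again far apart (log2 fold change, aged over young, -2.11, SE 0.75, adjusted p = 0.467). Its fold change was -2.80 without young replicate 1 and -0.70 without young replicate 2. On the relative scale it stood at -2.86 and -2.37 in the aged samples against -0.62 and -0.04 in the young, so its difference of -2.29 was larger than the spread within each age.

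Foxa1 and Gata3 encode the transcription factors that open chromatin for the oestrogen receptor and hold the luminal fate. Foxa1 was at 129.8 and 85.9 CPM in the aged and 74.5 and 189.6 CPM in the young samples, with overlapping groups (log2 fold change, aged over young, -0.29, SE 0.52, adjusted p = 0.825). Gata3 was at 268 and 187 CPM in the aged and 125 and 305 CPM in the young samples, also with overlap (log2 fold change 0.08, SE 0.49). Gata3 is used by T cells too. In young replicate 1, which held the T cell markers, it was lowest in CPM and highest against the pan-epithelial median (2.07 and 1.82 in the aged samples against 2.38 and 2.16 in the young), and the part of T cells was not tested. Relative to the epithelium Foxa1 differed by -0.70 and Gata3 by -0.33.

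Prom1, a surface pentaspan protein of luminal cells, was at 63.5 and 43.9 CPM in the aged and 38.3 and 52.9 CPM in the young samples. Ly6d, a lipid-anchored surface protein, was at 83.99 and 65.4 CPM in the aged and 70.2 and 77.4 CPM in the young samples. These 2 genes overlapped between ages on both scales and varied least among the hormone-sensing genes, with log2 fold changes of 0.24 (SE 0.27) and 0.02 (SE 0.18). Against the pan-epithelial median Ly6d stood at 1.55 in young replicate 1, the library with the lymphoid markers. It stood at 0.18 in young replicate 2 and at 0.40 and 0.30 in the aged samples. The part of lymphoid cells in the Ly6d level was not tested. Of the 6 genes, 3 had a positive and 3 a negative value, around a median of -0.14, and with library totals as the only scaling Gata3 and Ly6d turned negative as well. It was -0.62 without young replicate 1, 0.30 without young replicate 2, -0.42 without aged replicate 1 and 0.08 without aged replicate 2.

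The basal genes gave the highest median log2 fold change of the 4 groups, 1.11, with 4 of 5 positive. Krt5 and Krt14 encode the paired keratin filaments of basal epithelium. Krt5 was at 74.9 and 86.2 CPM in the aged and 12.1 and 50.9 CPM in the young samples. Krt14 was at 48.6 and 50.6 CPM in the aged and 8.47 and 34.1 CPM in the young samples. For both genes the aged samples lay close together and above both young ones, and young replicate 1 was lowest (log2 fold changes 1.36, SE 0.72, and 1.22, SE 0.70, adjusted p = 0.536 and 0.548). Without young replicate 1 the fold changes were 0.66 and 0.54, and they were 2.75 and 2.56 without young replicate 2.

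Trp63, the transcription factor that maintains basal identity, was at 33.3 and 34.01 CPM in the aged and 8.15 and 23.02 CPM in the young samples. It too was higher in both aged samples (log2 fold change, aged over young, 1.11, SE 0.54, adjusted p = 0.523, 0.55 without young replicate 1 and 2.06 without young replicate 2). Relative to the epithelium Krt5 differed by 1.17, Krt14 by 1.01 and Trp63 by 0.77. Epidermis uses the same 3 genes. Of 12 epidermal and hair follicle markers, Krt2, Flg and Krt27 were at 0 in all libraries, Krt1 at most 0.294 CPM and Krt10 at most 1.40 CPM, and the list summed to 12.9 and 10.01 CPM in the aged and 8.14 and 9.97 CPM in the young samples, most of it Sbsn. The median log2 fold change of the 7 markers tested was 0.71, and both aged samples were above both young ones for 3 of them (Ivl, Krt71 and Krt1). Ivl, involucrin of the cornified layer, was at 0.648 and 0.685 CPM in the aged and 0.0488 and 0.0136 CPM in the young samples (edgeR adjusted p = 0.360, DESeq2 adjusted p = 0.000777). Krt71, a hair follicle keratin, was at 0.367 and 0.371 CPM in the aged and 0.0488 and 0.0949 CPM in the young samples. The part of skin in the differences of Krt5, Krt14 and Trp63 was not tested.

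Krt17, a keratin of basal and stressed epithelium, overlapped between ages. It was at 17.6 and 20 CPM in the aged and 10.1 and 29.7 CPM in the young samples (log2 fold change, aged over young, -0.08, SE 0.56, adjusted p = 0.959). On the relative scale both aged samples were below both young ones (difference -0.41). Oxtr, the oxytocin receptor through which myoepithelial cells contract, was at 339.5 and 512 CPM in the aged and 195 and 241 CPM in the young samples. The aged samples were above both young ones (log2 fold change, aged over young, 0.97, SE 0.27, adjusted p = 0.426, unadjusted p = 0.0229). The fold change lay between 0.64 without aged replicate 2 and 1.22 without aged replicate 1. Relative to the pan-epithelial median it overlapped between ages (2.41 and 3.27 in the aged samples against 3.02 and 1.82 in the young). Among the other lists, the 5 adipocyte markers summed to 8781 and 6784 CPM in the aged and 5189 and 5452 CPM in the young samples, also higher in both aged samples. Their part in the Oxtr difference was not tested.

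The median of the 5 basal genes was 0.55 without young replicate 1 and 2.06 without young replicate 2. Ratios of genes within a library, chosen after the values were seen and computed from RPKM, are given as a description with no test. As a share of Krt8 and Krt18, Krt5 and Krt14 together amounted to 14.1% and 16.6% in aged MFP against 3.66% and 7.59% in young MFP, a 2.91-fold higher ratio in aged MFP. As a share of Epcam, Trp63 amounted to 6.86% and 7.14% in aged MFP against 3.11% and 3.84% in young MFP. On the same base Areg amounted to 59.03% and 27.1% in aged MFP against 151% and 275% in young MFP, a 5.09-fold higher ratio in young MFP.

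Luminal progenitor genes were positive in 6 of 6 cases with a median of 0.37, though Aldh1a3 and Wfdc18 turned negative with library totals as the only scaling. The median became -0.23 without young replicate 1 and 1.25 without young replicate 2. Elf5, the ETS factor that sets the alveolar fate, was at 48.9 and 51.9 CPM in the aged and 21.3 and 58.8 CPM in the young samples. Kit, the stem cell factor receptor of these progenitors, was at 233 and 222 CPM in the aged and 97.7 and 239.6 CPM in the young samples. Both genes overlapped between ages against the pan-epithelial median, with relative levels of -0.38 and -0.03 in the aged samples against -0.17 and -0.21 in the young for Elf5 and of 1.87 and 2.07 in the aged samples against 2.03 and 1.82 in the young for Kit. As a share of Epcam, per length, both were higher in the aged samples. Kit amounted to 45.2% and 43.96% in aged MFP against 35.1% and 37.6% in young MFP, and Elf5 to 14.4% and 15.6% in aged MFP against 11.6% and 13.98% in young MFP. Mast cells also use Kit. Their 6 markers summed to 15.2 and 20.3 CPM in the aged and 2.65 and 11.1 CPM in the young samples. For the 5 of them tested, both aged samples were above both young ones. The part of mast cells in the Kit level was not tested.

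Aldh1a3, a retinaldehyde dehydrogenase of progenitors, was at 75.7 and 68.7 CPM in the aged and 30.7 and 111 CPM in the young samples. Lcn2, the iron-siderophore carrier lipocalin 2, was at 87.4 and 68.7 CPM in the aged and 25.2 and 91.8 CPM in the young samples. Wfdc18, a small secreted protein of the whey acidic protein family, was at 29.8 and 35.7 CPM in the aged and 13.7 and 45.4 CPM in the young samples. For these 3 genes young replicate 1 was lowest and young replicate 2 highest, with log2 fold changes of 0.03, 0.42 and 0.15 (SE 0.64, 0.65 and 0.61). Neutrophils also make Lcn2, and their 5 markers summed to at most 0.476 CPM. The part of neutrophils, adipocytes or other cells of the fat pad in the Lcn2 level was not tested.

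Mfge8, which encodes the milk fat globule protein lactadherin, a bridge for the uptake of dying cells, had the smallest SE of the 40. It was at 523 and 479.8 CPM in the aged and 339 and 341 CPM in the young samples. The 2 young samples were alike and both aged ones higher (log2 fold change, aged over young, 0.56, SE 0.16, adjusted p = 0.426, unadjusted p = 0.0227), and the fold change stayed between 0.48 and 0.62 when any sample was left out. Against the epithelium it overlapped between ages, with relative levels of 3.03 and 3.18 in the aged samples against 3.83 and 2.33 in the young. Macrophages and other stromal cells also use Mfge8, and the 5 macrophage markers summed to 214 and 245 CPM in the aged and 156 and 147 CPM in the young samples. Their part in the Mfge8 difference was not tested. Mfge8 was alike in the young pair, where the median of the 40 genes was 2.76-fold higher in young replicate 2. The part of the lymphoid RNA of young replicate 1 in its Mfge8 level was not tested either.

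**Figure D4:**
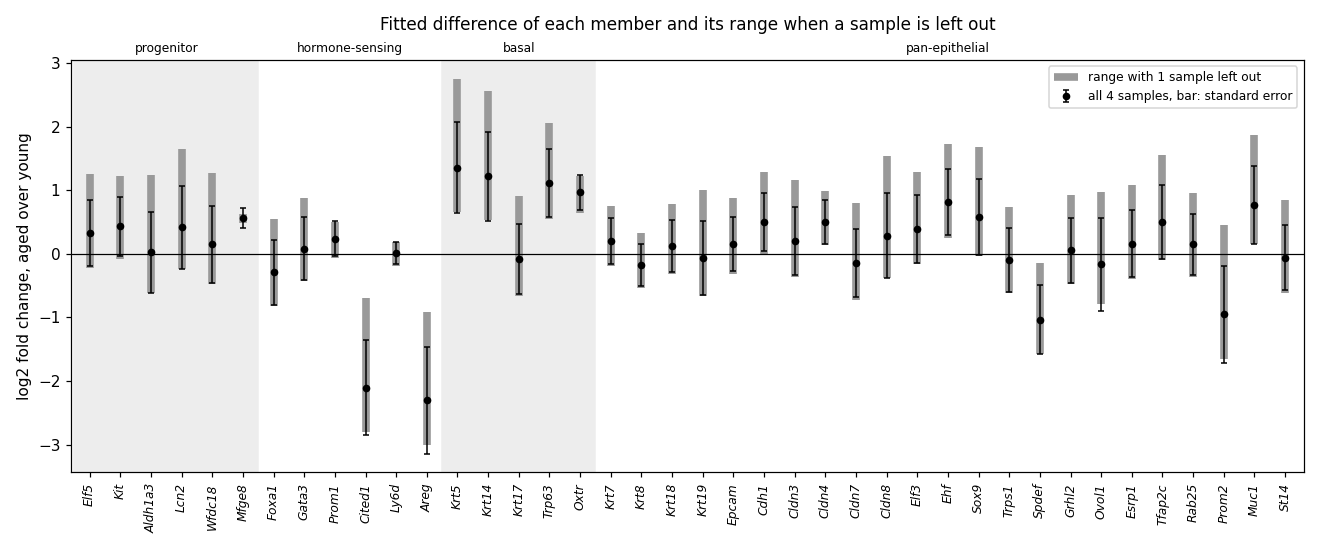
Fitted log2 fold change (aged over young) of each gene with its standard error (black) and the range of the same value when each of the 4 libraries was left out in turn (grey). The grey range stays above 0 for Krt5, Krt14, Trp63, Oxtr, Mfge8, Ehf, Muc1 and Cldn4 and below 0 for Areg, Cited1 and Spdef, and crosses 0 for the other 29 genes.

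Of the 23 pan-epithelial genes, 15 had a positive and 8 a negative log2 fold change, and with library totals as the only scaling Krt18, Epcam, Grhl2, Esrp1 and Rab25 turned negative. The median of 0.16 was -0.36 without young replicate 1 and 0.98 without young replicate 2. Per length, the simple keratins of luminal cells were the highest of all members. Krt19 was at 277 and 286 RPKM aged, 142 and 444 RPKM young, Krt18 at 272 and 254 RPKM aged, 153 and 328 RPKM young and Krt8 at 165 and 156 RPKM aged, 128 and 232 RPKM young. The aged values lay between the 2 young ones for all 3 genes, with log2 fold changes of -0.06, 0.13 and -0.17 (SE 0.58, 0.41 and 0.33). Krt7, a keratin of ductal epithelium, was at 169 and 136 CPM in the aged and 91.1 and 174 CPM in the young samples. Krt8 (chr15:101996698-102004482) and Krt18 (chr15:102028180-102032027) are neighbours in GRCm38.

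Young replicate 1 was the lowest library for each adhesion gene. Epcam, the epithelial adhesion molecule, was at 127 and 125 CPM in the aged and 68.6 and 157 CPM in the young samples (log2 fold change, aged over young, 0.16, SE 0.43, adjusted p = 0.888). Cdh1, E-cadherin of the adherens junction, was at 176 and 157 CPM in the aged and 68.6 and 167 CPM in the young samples (log2 fold change 0.50, SE 0.46, and -0.01 without young replicate 1). The 4 claudins, which seal tight junctions, had log2 fold changes of 0.21 for Cldn3, 0.50 for Cldn4, -0.15 for Cldn7 and 0.29 for Cldn8, each with overlapping groups. Of these, Cldn4 was at 125 and 92.4 CPM in the aged and 54.97 and 98.5 CPM in the young samples.

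The epithelial transcription factors had values of both signs. Ehf, an ETS factor, was at 75.1 and 64.9 CPM in the aged and 21.2 and 58.6 CPM in the young samples and did not overlap between ages (log2 fold change, aged over young, 0.81, SE 0.52, adjusted p = 0.568, 0.26 without young replicate 1). Elf3 (another ETS factor), Sox9 (a factor of progenitor cells) and Tfap2c (AP-2 gamma) had log2 fold changes of 0.39, 0.58 and 0.50 with overlapping groups. Grhl2, a Grainyhead-like factor of junction genes, was at 40.3 and 30.9 aged against 18.9 and 49.4 CPM young (log2 fold change 0.06), Ovol1, a zinc finger repressor, at 2.95 and 1.48 aged against 1.13 and 3.82 CPM young (-0.16), and Trps1, a GATA-type repressor, at 546 and 415 aged against 290.0 and 738 CPM young (-0.10). Ovol1 was the lowest member per length, with a mean of 0.673 RPKM and 93 counts in young replicate 1.

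Spdef, an ETS factor of secretory epithelium, was at 3.73 and 3.14 CPM in the aged and 3.81 and 10.3 CPM in the young samples. Both aged values were just below the lower young one, and young replicate 2 was highest (log2 fold change, aged over young, -1.03, SE 0.55, adjusted p = 0.537, -1.58 without young replicate 1 and -0.14 without young replicate 2). Against the epithelium it stood at -4.09 and -4.07 in the aged samples against -2.64 and -2.73 in the young, a difference of -1.39 with close replicates at each age. Prom2, a pentaspan protein of membrane protrusions, was at 105 and 63.2 CPM in the aged and 61.9 and 264 CPM in the young samples. The groups overlapped in CPM (log2 fold change, aged over young, -0.95, SE 0.76, adjusted p = 0.620, and 0.46 without young replicate 2) but not relative to the epithelium (0.72 and 0.25 in the aged samples against 1.37 and 1.95 in the young).

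Muc1, the apical mucin of luminal cells, was at 20.5 and 17.4 CPM in the aged and 5.21 and 17.1 CPM in the young samples, with the aged samples just above the higher young one (log2 fold change, aged over young, 0.77, SE 0.61, adjusted p = 0.618, 0.15 without young replicate 1). Esrp1, a splicing regulator of epithelial isoforms, was at 63.8 and 53.1 aged against 27.7 and 76.8 CPM young, Rab25, a recycling GTPase, at 14.2 and 14.5 aged against 7.43 and 18.4 CPM young, and St14, the membrane serine protease matriptase, at 78.5 and 65.7 aged against 40.3 and 109.8 CPM young. For these 3 genes both aged samples lay between the young ones, with log2 fold changes of 0.16, 0.15 and -0.06.

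Further epithelial genes, listed by lineage, were read in the same way. edgeR called 0 of 43 of them. At an unadjusted p under 0.05 it counted 1 as higher, where 7.24% of all genes were, and 1 as lower, where 3.31% were. DESeq2 called 1 higher (Cxcl15), beside 3.17% of all genes, and 1 lower (Itgb3), beside 0.692%. Their median log2 fold change was 0.19, with 30 positive and 13 negative. By lineage the median was 0.09 for 5 luminal progenitor, 0.41 for 9 hormone-sensing, 0.41 for 10 basal and 0.03 for 19 pan-epithelial genes.

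Among the further progenitor genes, Itgb3, an integrin chain also used by platelets and other cells, was at 16.9 and 14.6 CPM in the aged and 49.7 and 34.5 CPM in the young samples (log2 fold change, aged over young, -1.42, SE 0.25, adjusted p = 0.360, DESeq2 adjusted p = 0.00052), lower in both aged samples. Ltf, lactoferrin, was at 234 and 331 CPM in the aged and 68.6 and 289 CPM in the young samples. Of the further hormone-sensing genes, Tnfsf11, the progesterone-induced ligand RANKL that lymphocytes also make, was at 0.196 and 0.314 CPM in the aged and 2.71 and 0.366 CPM in the young samples, high only in the library with the lymphoid markers. Tph1, the enzyme for peripheral serotonin, which mast cells also use, was at 9.43 and 20.7 CPM in the aged and 1.83 and 6.30 CPM in the young samples (log2 fold change, aged over young, 1.89, SE 0.76, adjusted p = 0.496). The receptor genes, chosen here after their values were seen, overlapped between ages in CPM and were lower in both aged samples against the pan-epithelial median. Esr1, the oestrogen receptor, was at 197 and 171 CPM in the aged and 115 and 226 CPM in the young samples, and Pgr, the progesterone receptor, at 289 and 204 CPM in the aged and 154 and 363 CPM in the young samples, with log2 fold changes of 0.11 and -0.07 beside -2.30 for Areg. Against the pan-epithelial median Esr1 differed by -0.35, Pgr by -0.49 and Prlr, the prolactin receptor, by -0.37. Cxcl15, also chosen after its values were seen, is an epithelial chemokine and was at 63.6 and 68.3 CPM in the aged and 24.6 and 28.3 CPM in the young samples (log2 fold change, aged over young, 1.32, SE 0.15, adjusted p = 0.360, DESeq2 adjusted p = 6.02e-07).

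Of the further basal genes, Cdh3, the P-cadherin of basal cells, was at 17.98 and 18.9 CPM in the aged and 4.95 and 15.2 CPM in the young samples and Col17a1, a hemidesmosome collagen, at 47.5 and 52.1 CPM in the aged and 11.98 and 45.2 CPM in the young samples, with log2 fold changes of 0.87 and 0.80 (SE 0.58 and 0.66). Both aged samples were above both young ones for these 2 genes. Dsp, the desmosomal plaque protein, and Ovol2, a zinc finger factor, had the largest log2 fold changes of the further pan-epithelial genes, 0.52 and 0.43, with overlap in Dsp (145 and 124 aged against 47.1 and 139.8 CPM young) and in Ovol2 (1.99 and 1.39 aged against 0.695 and 1.82 CPM young).

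The remaining marker lists of other cells are given beside these results. Skeletal muscle markers summed to 33847 and 54832 CPM in the aged and 8902 and 12551 CPM in the young samples, higher in both aged samples. Cell division markers summed to 10.7 and 31.3 CPM in the aged and 92.8 and 27.8 CPM in the young samples, highest in young replicate 1. Of the 6 milk protein genes, Wap was at 0 in all libraries, and Lalba, the regulator of lactose synthesis, was at 0.0734 and 0.0674 CPM in the aged and 0.964 and 3.35 CPM in the young samples. Their part in the epithelial differences was not tested.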

How the data were processed

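RNA of whole MFPs was lysed, depleted of ribosomal RNA and made into strand-specific libraries. The authors deposited whole-number counts of reads per gene, not normalized, in 1 column per sample. The submitters' processing notes name featureCounts, R 3.6.1 and the builds GRCm38 and hg38, without roles, and the aligner and the strand setting of the counting are not given in the sources used here.

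Groups and replicate numbers came from the sample titles. Counts were analysed with R 4.3.3. Genes kept by filterByExpr were scaled by TMM and tested with edgeR 4.0.16 (glmQLFit and glmQLFTest, legacy method, age as the only term), with Benjamini-Hochberg adjustment over 22485 genes and a threshold of 0.05. The SE is the log2 fold change divided by the square root of F. CPM use TMM-scaled totals, log2 CPM a prior count of 2, and RPKM the union of exons in GENCODE M21. Levels relative to the pan-epithelial median were tested with two-sided exact permutation tests. DESeq2 1.42.0, other scalings and filters, the replicate block and leaving out each sample were alternatives. Code was tested on simulated data.

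The members and lists were chosen with earlier results of these data known. Every member is named, and of each further list the 2 genes with the largest absolute log2 fold change. Esr1, Pgr, Prlr and Cxcl15 and the ratios between genes were chosen after their values were seen. The 10 further basal genes are all named. Overlapping exons on the other strand are annotated for Krt5, Krt7, Krt8, Elf3, Gata3, Prom1, Ovol1, Grhl2, Esrp1 and Cldn3, and on the same strand for Gata3 and Trps1, so reads may be shared there.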

Additional observations from a re-analysis of the deposited data

How the results depend on the processing

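The count of 0 members called held under every alternative that kept all samples. These were RLE, upper quartile or total-count scaling, no filter, at least 10 counts in every sample, robust or non-legacy quasi-likelihood estimation, DESeq2 and the replicate block. With edgeR each of these settings also called 0 of all genes, so the count of 0 does not single out the members. DESeq2 called 865 genes. The hormone-sensing and basal differences relative to the pan-epithelial level kept their direction under every alternative, from -1.30 to -0.66 and from 0.73 to 1.25. The luminal progenitor difference reversed to 0.22 with means in place of medians, to 0.22 with Epcam as the reference and to 0.33 with summed CPM as the reference, the latter 2 chosen after seeing the data, and ranged from -0.21 to 0.14 with a sample left out. Medians of log2 fold changes ranged from -0.34 to 0.98 (all members), 0.55 to 2.06 (basal) and -0.36 to 0.98 (pan-epithelial) with a sample left out. The cause was not tested.

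Single genes changed sign as follows. Under total counts only, these were Aldh1a3 -0.16, Wfdc18 -0.043, Gata3 -0.092, Ly6d -0.16, Krt18 -0.056, Epcam -0.026, Grhl2 -0.12, Esrp1 -0.018, Rab25 -0.032. Under upper quartile scaling, these were Aldh1a3 -0.021, Ly6d -0.015. The other scalings, filters and tools turned 0 of 40. With a sample left out, 19 genes turned without young replicate 1, 9 without young replicate 2, 5 without aged replicate 1 and 3 without aged replicate 2, with ranges of Elf5 -0.22 to 1.26, Kit -0.075 to 1.23, Aldh1a3 -0.62 to 1.24, Lcn2 -0.24 to 1.64, Wfdc18 -0.47 to 1.27, Foxa1 -0.81 to 0.54, Gata3 -0.42 to 0.88, Prom1 -0.066 to 0.50, Ly6d -0.19 to 0.19, Krt17 -0.66 to 0.91, Krt7 -0.19 to 0.75, Krt8 -0.54 to 0.33, Krt18 -0.32 to 0.79, Krt19 -0.66 to 1.00, Epcam -0.32 to 0.89, Cdh1 -0.0054 to 1.29, Cldn3 -0.36 to 1.16, Cldn7 -0.72 to 0.80, Cldn8 -0.37 to 1.55, Elf3 -0.16 to 1.28, Sox9 -0.028 to 1.68, Trps1 -0.62 to 0.74, Grhl2 -0.47 to 0.93, Ovol1 -0.79 to 0.98, Esrp1 -0.39 to 1.09, Tfap2c -0.10 to 1.55, Rab25 -0.36 to 0.96, Prom2 -1.65 to 0.46, St14 -0.61 to 0.85. None of these genes was called in any setting.

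Replicate numbers are shared by the ages but not known to pair samples, and the correlation of the deviations of same-numbered samples was -0.48. With the replicate block 0 members were called, 34 were positive, their median was 0.30, and Krt17 0.12, Krt19 0.16, Cldn7 0.037, Trps1 0.041, Ovol1 0.0020, St14 0.11 changed sign. A crossed block, chosen after seeing the data, called 0 members and 0 genes.

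All 40 genes lay above 3 counts in every library. Leaving out 1 young sample moved most fold changes by more than their SE.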
